A study of Mus musculus with 16 samples.

Results

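The 39 genes described here carry glucose into the cell, break it down and answer to low oxygen. They were 6 glucose transporters, 11 genes of upper glycolysis, 6 of lower glycolysis, 6 of pyruvate and lactate handling, 4 of the pentose phosphate pathway and 6 of the hypoxia-inducible factor (HIF) pathway and its targets. They were taken from the count table by exact gene symbol. All 39 were found, each in 1 entry, among the 24623 symbols and 25611 entries of the count table, and all 39 were among the 16630 entries that passed the filter on low counts.

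RNA-Seq read counts per gene were obtained from the thyroids of 16 female mice, 4 in each of 4 groups. WT(ND) and *Glis3*-Pax8Cre(ND) mice ate a normal diet (ND, NIH-31), and WT(LID) and *Glis3*-Pax8Cre(LID) mice ate a low-iodine diet (LID, TD.95125) for 6 days after weaning at 3 weeks, up to an age given as 1 month in the labels. A low-iodine diet limits thyroid hormone synthesis and raises thyroid-stimulating hormone (TSH), the pituitary signal to the follicular cell. The *Glis3*-Pax8Cre mice carried Glis3<tm2Amj> together with the driver allele Pax8<tm1.1(cre)Mbu>. The labels give the strain of all 16 mice as C57BL/6 and the genotype of the *Glis3*-Pax8Cre mice as B6;129, so a difference in background and the deletion cannot be told apart. Cre recombinase under control of *Pax8* deletes exon 5 of the floxed *Glis3* gene, which encodes a zinc finger transcription factor of thyroid follicular cells, so the deletion is limited to cells that express or once expressed *Pax8*. The WT mice are described only by strain, so any alleles they share with the *Glis3*-Pax8Cre mice are not known here, and nothing ties mice to litters.

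Libraries held 13892352 to 461077969 counted read pairs, and *Tg*, the thyroglobulin gene, took 7.87% to 29.3% of them. The 39 members took 0.441% to 0.748%. Thyroid identity was clear in every library, where the 8 follicular markers summed to at least 97507 CPM (counts scaled to a common library size by TMM), most of it *Tg*. The sum was lower with the deletion, with no overlap. On ND it was 203446 to 307012 CPM in WT and 125520 to 185706 CPM in *Glis3*-Pax8Cre mice. On LID it was 219990 to 331275 CPM and 97507 to 164469 CPM in the same order. Of the 8 genes, 3 were called higher and 3 lower with the deletion on LID, and 2 higher and 3 lower on ND. *Glis3* itself averaged 73 ± 18.7 CPM (SD, n = 4) in WT(ND) and 96.1 ± 8.41 in *Glis3*-Pax8Cre(ND) mice, a difference that missed the threshold (adjusted p = 0.157). On LID it averaged 156 ± 21.7 CPM in WT and 165 ± 37.4 in *Glis3*-Pax8Cre mice. Since the count covers the whole gene and not exon 5 alone, it does not check the deletion. Markers of adipocytes, endothelial cells, pericytes, fibroblasts, parathyroid, skeletal muscle and thymocytes differed between libraries, and their levels are given beside members they moved with. In whole glands, fewer cells of a type and less RNA per cell cannot be told apart.

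Glucose enters cells through facilitative transporters of the SLC2A (GLUT) family, is trapped by hexokinase and is split by glycolysis into pyruvate, which is either oxidised in mitochondria or reduced to lactate and exported by monocarboxylate transporters. The pentose phosphate pathway branches off at glucose 6-phosphate and supplies NADPH, which thyroid follicular cells use to make the hydrogen peroxide needed for iodination. HIF transcription factors are stabilised when oxygen is low and raise the transcription of many glucose transporter and glycolytic genes by binding a short core sequence, and TSH is a known stimulus of glucose uptake in thyroid cells.

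The deletion of *Glis3* went with more members lower than higher on both diets. On LID, 11 of the 39 members were lower and 4 higher in *Glis3*-Pax8Cre than in WT mice at an adjusted p under 0.05 (quasi-likelihood test of edgeR, adjusted by Benjamini-Hochberg over all 16630 entries, as for every adjusted p below), where 15.4% and 14.9% of all entries were called lower and higher (30.2% in either direction). On ND, 9 were lower and 3 higher, against a background of 9.25% and 10.3%. With scaling by library size alone the counts were 5 and 3, and the background under that scaling is not given. The median log2 fold change of the members was -0.14 on LID and -0.21 on ND, against 0.01 and 0.02 for all entries. Groups of 4 mice did not overlap for 13 members that were lower and 3 that were higher on LID (background 17.9% and 17.7%), and for 9 lower and 1 higher on ND (background 9.96% and 9.58%).

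The low-iodine diet was compared with ND within each genotype. In WT mice 14 members were lower and 5 higher on LID than on ND (background 20.8% and 20.9%), with a median log2 fold change of -0.15 against -0.03 for all entries. In *Glis3*-Pax8Cre mice 8 were lower and 2 higher (background 12.3% and 13.1%), with medians of -0.13 and -0.03. With scaling by library size alone the counts were 10 and 1, without a background given. Taken in either direction, 48.7% of members were called in WT mice against 41.7% of all entries, and 25.6% against 25.4% in *Glis3*-Pax8Cre mice, so the share of called members was near the background. Groups did not overlap for 14 members lower and 6 higher in WT mice (background 23.3% and 23.7%, or 46.9% in either direction) and for 6 lower and 2 higher in *Glis3*-Pax8Cre mice (background 10.2% and 11.8%). The parathyroid markers *Pth*, *Gcm2* and *Casr* all fell on LID in both genotypes. Their sum was 3476 to 6005 CPM on ND and 858 to 1676 CPM on LID in WT mice, and 3289 to 5179.9 CPM and 225 to 2099 CPM in the same order in *Glis3*-Pax8Cre mice, and their part in the members that were lower on LID was not tested. Leaving out WT(ND) replicates 2 and 4, whose adipocyte markers were highest, left 6 members lower and 6 higher in WT mice on LID, and 3 lower and 1 higher in *Glis3*-Pax8Cre(ND) against WT(ND) mice. That fit has fewer WT(ND) mice, and its share of all entries called is not given, so these counts have no background here.

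**Figure D1:**
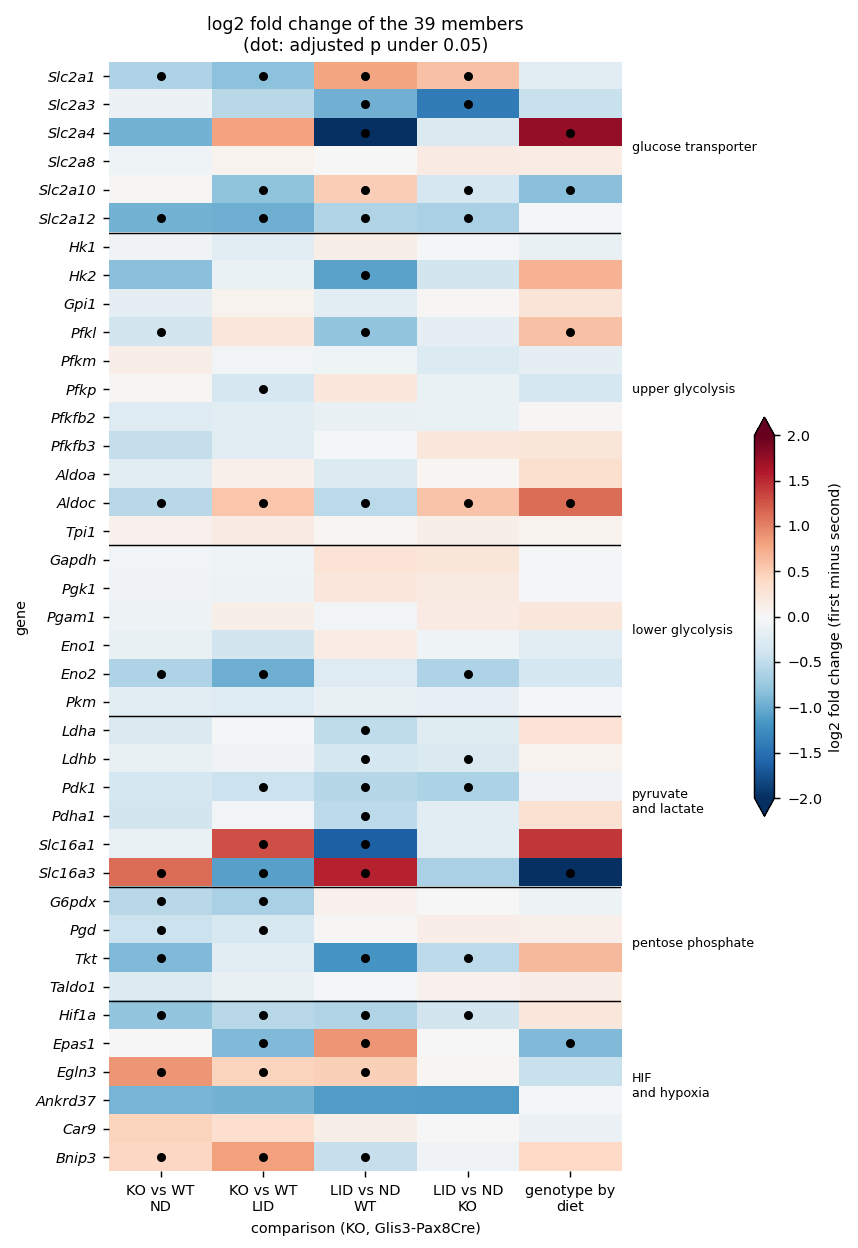
Heat map of the log2 fold change of the 39 members (rows, by role) in 5 comparisons (columns); KO stands for *Glis3*-Pax8Cre, red for higher and blue for lower in the first-named group, and a dot for an adjusted p under 0.05. Of the 39 members, 23 carry a dot in some column and 16 in none, and lower glycolysis holds a dot for *Eno2* alone.

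The 16 members without a call in any of the 5 comparisons include most of the core of glycolysis. They were *Slc2a8*, *Hk1*, *Gpi1*, *Pfkm*, *Pfkfb2*, *Pfkfb3*, *Aldoa*, *Tpi1*, *Gapdh*, *Pgk1*, *Pgam1*, *Eno1*, *Pkm*, *Taldo1*, *Ankrd37* and *Car9*. The share of all entries without a call in any of the 5 comparisons is not given, so this count has no background here. Levels of different genes were compared per kilobase of exon (CPM per kb, with GENCODE M21 exon lengths). This length joins the exons of all transcripts of a gene, so it can exceed that of the RNA made, and the order depends on it. *Ldhb* (1570 bases) ranks above *Ldha* (3310 bases), though *Ldha* counts were 1.79 to 2.06 times those of *Ldhb* in WT(ND) mice. In WT(ND) mice the level was highest for *Aldoa* at 203 ± 34.3 CPM per kb (SD, n = 4), followed by *Gapdh* at 122 ± 13.1 and *Ldhb* at 118 ± 6.69. The next, *Taldo1* at 109.6 ± 12.8, *Ldha* at 109 ± 12.2 and *Hif1a* at 102 ± 17.9, lay within each other's SD. Among glucose transporters *Slc2a1* at 11.6 ± 1.5 CPM per kb and *Slc2a4* at 10.02 ± 4.92 did not differ beyond their spread, and *Slc2a8* at 5.09 and *Slc2a10* at 4.97 lay below them. The lowest members were *Eno1* at 0.368, *Car9* at 0.243 and *Slc16a3* at 0.238 CPM per kb. The level of *Eno1* is uncertain, since its entry overlaps that of its near-identical copy *Eno1b*.

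Promoter sequences are shown for 5 members that moved in several comparisons and whose products act at the cell membrane or in the HIF response. RefSeq promoters (GRCm38.p6, from 250 bases before to 50 after a transcription start) were at hand for 36 of the 39 members, 52 promoters in all. Capitals mark each ACGTG or GCGTG on either strand (printed as CACGT or CACGC where it is on the other strand), the core letters of a hypoxia response element. The promoters of *Slc2a1* (chr4:119108495-119108794, plus strand), *Slc16a1* (chr3:104638414-104638713, plus strand), *Slc16a3* (chr11:120948817-120949116, plus strand), *Egln3* (chr12:54203825-54204124, minus strand) and *Bnip3* (chr7:138909457-138909756, minus strand) read 5′ to 3′ as follows.
Slc2a1: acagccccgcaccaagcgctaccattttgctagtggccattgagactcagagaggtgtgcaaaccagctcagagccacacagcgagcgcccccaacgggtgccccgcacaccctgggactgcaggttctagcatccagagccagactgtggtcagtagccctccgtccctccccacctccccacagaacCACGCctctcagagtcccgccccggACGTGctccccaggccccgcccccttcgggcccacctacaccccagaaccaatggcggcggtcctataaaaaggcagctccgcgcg
Slc16a1: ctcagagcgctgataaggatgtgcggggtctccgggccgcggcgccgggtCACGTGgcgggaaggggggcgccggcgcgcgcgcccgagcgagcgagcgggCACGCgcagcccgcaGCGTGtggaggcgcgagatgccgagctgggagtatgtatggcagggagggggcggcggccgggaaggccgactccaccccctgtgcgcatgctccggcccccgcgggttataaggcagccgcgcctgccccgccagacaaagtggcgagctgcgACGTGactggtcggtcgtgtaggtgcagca
Slc16a3: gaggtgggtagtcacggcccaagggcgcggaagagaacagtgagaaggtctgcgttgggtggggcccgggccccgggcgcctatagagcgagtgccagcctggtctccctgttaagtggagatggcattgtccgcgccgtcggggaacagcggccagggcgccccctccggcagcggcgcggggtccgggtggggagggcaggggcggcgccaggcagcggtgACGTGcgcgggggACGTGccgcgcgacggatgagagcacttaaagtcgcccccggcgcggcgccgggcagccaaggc
Egln3: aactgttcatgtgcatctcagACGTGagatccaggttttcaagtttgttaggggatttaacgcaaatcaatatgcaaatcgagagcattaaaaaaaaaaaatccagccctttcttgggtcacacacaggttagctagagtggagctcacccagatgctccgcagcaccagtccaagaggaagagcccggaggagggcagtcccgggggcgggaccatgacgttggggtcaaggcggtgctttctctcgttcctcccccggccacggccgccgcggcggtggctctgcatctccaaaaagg
Bnip3: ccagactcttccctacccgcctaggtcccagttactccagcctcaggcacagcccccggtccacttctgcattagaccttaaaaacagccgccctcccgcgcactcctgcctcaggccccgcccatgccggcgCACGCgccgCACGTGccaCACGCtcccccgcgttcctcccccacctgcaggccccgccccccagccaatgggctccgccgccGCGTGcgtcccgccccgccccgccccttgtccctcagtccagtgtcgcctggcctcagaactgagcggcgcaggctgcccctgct

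These letters were found in at least 1 promoter of 32 of the 36 members. Counted by promoter, 42 of the 52 (80.8%) held them, against 43.8% of all 32851 promoters in the table. The ACGTG core alone was in 50% of member promoters against 19.6% of all, and GCGTG in 55.8% against 32.4%. The median promoter of the members held 19 CG dinucleotides, the median of all promoters 7 and the median of all promoters with either core 17, so CG content moved with the share, and its part in the share was not tested. CACGTG, which contains ACGTG on both strands, was in 13.5% of member promoters against 7.15% of all. The letters TGGGGGGT, from the GLIS binding site, were in 1.92% of member promoters (*Pkm* alone) against 1.53% of all. A match describes the letters in this window and not a bound site. *Slc16a1* and *Slc16a3*, which both hold the core, moved in opposite directions in WT mice on LID.

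*Slc2a1* encodes GLUT1, the transporter of basal glucose uptake in most cells. It stood at 47, 42.7, 34.8 and 38.5 CPM in the WT(ND) mice and at 27.6, 24.9, 23.9 and 30.1 CPM in the *Glis3*-Pax8Cre(ND) mice. On LID it stood at 77.3, 69.2, 64.6 and 71.7 CPM in WT and at 42.6, 36.5, 42.5 and 38.3 CPM in *Glis3*-Pax8Cre mice. All 4 WT(LID) mice were above every other mouse, and all 4 *Glis3*-Pax8Cre(ND) mice were below every other mouse. *Slc2a1* was lower in *Glis3*-Pax8Cre than in WT mice on LID (log2 fold change -0.82 ± 0.10, adjusted p = 2.02e-05) and on ND (log2 fold change -0.61 ± 0.10, adjusted p = 0.000818). It rose on LID in WT (log2 fold change 0.80 ± 0.10, adjusted p = 1.83e-05) and in *Glis3*-Pax8Cre mice (log2 fold change 0.59 ± 0.10, adjusted p = 0.000699). The diet effect was not shown to differ between the genotypes (interaction -0.21 ± 0.14, adjusted p = 0.378, 95% interval -0.49 to 0.07). These 4 calls held in every alternative fit.

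*Slc2a10* encodes GLUT10, a transporter found largely in intracellular membranes. It stood at 18.9, 17.3, 17.2 and 17.6 CPM in the 4 WT(ND) mice against 25.6, 26.1, 23.6 and 24.2 CPM in the 4 WT(LID) mice, with no overlap. The *Glis3*-Pax8Cre mice stood at 20.3, 17.8, 20.1 and 14.2 CPM on ND and at 13.9, 14.1, 16.2 and 12.8 CPM on LID. *Slc2a10* rose on LID in WT mice (log2 fold change 0.49 ± 0.10, adjusted p = 0.00161) and fell in *Glis3*-Pax8Cre mice (log2 fold change -0.34 ± 0.11, adjusted p = 0.0269), and the 2 diet effects differed (interaction -0.83 ± 0.15, adjusted p = 0.00194). The fall in *Glis3*-Pax8Cre mice was lost in 8 of the 27 alternative fits, with an adjusted p of up to 0.124, among them the fit with the replicate block over those 8 mice (adjusted p = 0.0868). *Slc2a10* was lower in *Glis3*-Pax8Cre than in WT mice on LID (log2 fold change -0.80 ± 0.11, adjusted p = 3.98e-05) and differed by 0.03 ± 0.11 (adjusted p = 0.889) on ND.

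*Slc2a12* encodes GLUT12, a low-abundance transporter of insulin-responsive tissues. It stood at 2.97, 3.42, 2.53 and 3.28 CPM in the 4 WT(ND) mice against 1.94, 1.69, 1.41 and 1.37 CPM in the 4 *Glis3*-Pax8Cre(ND) mice, and on LID at 1.59, 1.78, 2.37 and 2.28 CPM in WT and 1.17, 1.04, 1.04 and 0.826 CPM in *Glis3*-Pax8Cre mice. The *Glis3*-Pax8Cre mice were below the WT mice on each diet with no overlap. *Slc2a12* was lower with the deletion on LID (log2 fold change -0.97 ± 0.18, adjusted p = 0.000726) and ND (log2 fold change -0.94 ± 0.18, adjusted p = 0.00228), and fell on LID in WT (-0.61, adjusted p = 0.012) and *Glis3*-Pax8Cre mice (-0.64, adjusted p = 0.0177). The fall in *Glis3*-Pax8Cre mice had an adjusted p of 0.0672 with the replicate block and 0.0545 without *Glis3*-Pax8Cre(LID) replicate 4, and without WT(ND) replicates 2 and 4 the fall in WT mice had 0.149 and the ND difference between genotypes 0.0585. Its gene overlaps *Tbpl1* on the opposite strand, and reads were counted without regard to strand.

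*Slc2a4* encodes GLUT4, the insulin-regulated transporter of muscle and fat. It stood at 19.2, 56.7, 23.4 and 40.03 CPM in the 4 WT(ND) mice against 11.2, 5.5, 8.83 and 8.25 CPM in the 4 WT(LID) mice, a fall with no overlap (log2 fold change -2.04 ± 0.37, adjusted p = 0.000566). Its level with the deletion was 25.7, 21.4, 11.4 and 14.1 CPM on ND and 15.4, 19.1, 16.3 and 8.47 CPM on LID, where the groups overlapped (log2 fold change -0.29 ± 0.36, adjusted p = 0.591). The 2 diet effects differed (interaction 1.76 ± 0.51, adjusted p = 0.0385), a call that was lost in 14 of the 25 alternative fits, with an adjusted p of up to 0.22. The highest *Slc2a4* levels, in WT(ND) replicates 2 and 4, were in the libraries with the highest summed adipocyte markers (*Adipoq*, *Plin1*, *Cidec*, *Lep*, *Ucp1* and *Fabp4*). Without both libraries the interaction was 1.03 (adjusted p = 0.22).

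*Slc2a3* encodes GLUT3, a high-affinity transporter of neurons and lymphocytes. It stood at 4.98, 4.78, 3.7 and 3.88 CPM on ND and 2.14, 1.95, 2.91 and 1.9 CPM on LID in WT mice. It stood at 2.63, 2.26, 2.4 and 8.65 CPM on ND and 1.67, 1.29, 1.08 and 2.04 CPM on LID in *Glis3*-Pax8Cre mice. *Glis3*-Pax8Cre(ND) replicate 4 stood far above the other 3 mice of its group, and its thymocyte markers (*Cd3e*, *Cd4*, *Cd8a*, *Rag1*, *Dntt* and *Ptcra*) summed to 2214 CPM against 5.96 to 7.70 CPM in those mice. *Slc2a3* fell on LID in WT (log2 fold change -0.96 ± 0.37, adjusted p = 0.0478) and *Glis3*-Pax8Cre mice (log2 fold change -1.40 ± 0.38, adjusted p = 0.0134). The WT call was lost in 13 of the 26 alternative fits, with an adjusted p of up to 0.142. The fall in *Glis3*-Pax8Cre mice was -0.68 without *Glis3*-Pax8Cre(ND) replicate 4 and lost its call with only the 8 mice compared (adjusted p = 0.0736). On ND it did not differ by the test between genotypes (log2 fold change -0.11 ± 0.37, adjusted p = 0.86) but was called lower in *Glis3*-Pax8Cre mice without *Glis3*-Pax8Cre(ND) replicate 4 (-0.83). *Slc2a8* (GLUT8) averaged 16.3, 15.4, 16.5 and 17.3 CPM (in the order WT and *Glis3*-Pax8Cre on ND, then the same on LID), without a call.

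**Figure D2:**
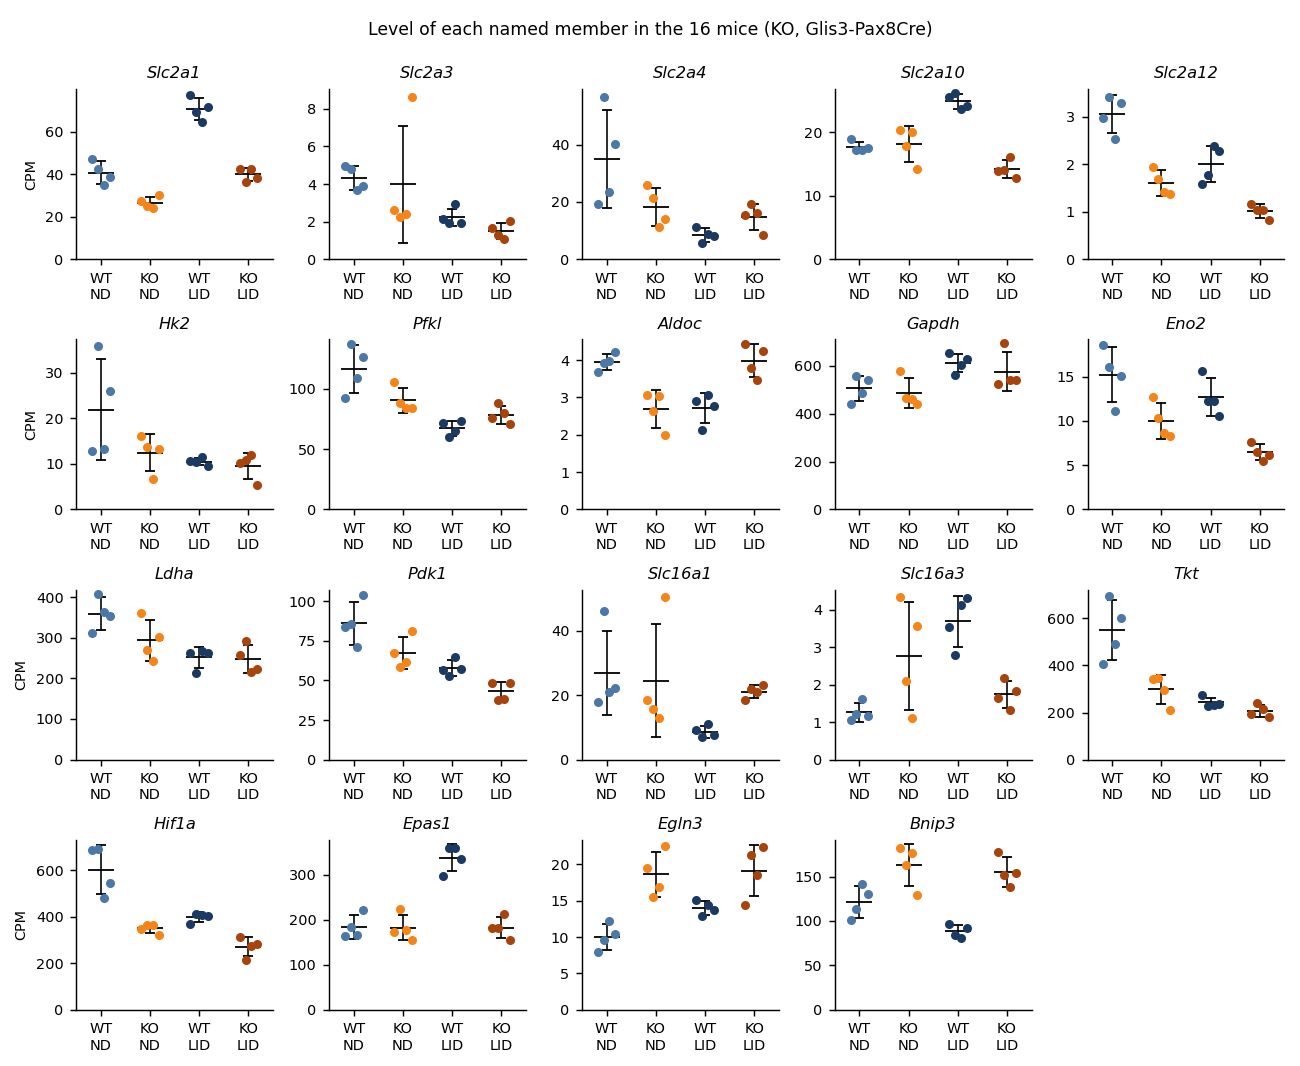
Level in CPM (vertical axes, from 0) of 19 members in each of the 16 mice by group (horizontal axes; KO, *Glis3*-Pax8Cre), with the mean and SD of 4 mice as bars. For *Slc2a1* and *Epas1* the 4 WT(LID) mice lie above all others, and for *Tkt* and *Hif1a* the 4 WT(ND) mice do.

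Of 9 other glucose transport genes, 8 were tested, and 2 were higher and 2 lower with the deletion on LID (50% called, against 30.2% of all entries). *Slc2a6*, encoding GLUT6, averaged 27.8 ± 13.9 CPM (SD, n = 4) in WT against 1.48 ± 0.295 CPM in *Glis3*-Pax8Cre mice on LID (log2 fold change -4.24 ± 0.34, adjusted p = 4.53e-07). It was also lower on ND, at 14 ± 4.72 against 1.63 ± 0.331 CPM (log2 fold change -3.09 ± 0.33, adjusted p = 3.20e-05). *Slc2a13*, the proton myo-inositol transporter, was lower on LID (log2 fold change -1.43 ± 0.19, adjusted p = 5.31e-05), and *Slc5a1*, the sodium-coupled glucose transporter SGLT1, was higher (log2 fold change 1.69 ± 0.28, adjusted p = 0.000334). *Slc2a5*, the fructose transporter GLUT5, was lower on ND (log2 fold change -1.07 ± 0.30, adjusted p = 0.0197), a call lost without WT(ND) replicate 2 or 4 (adjusted p = 0.0659 and 0.073) or *Glis3*-Pax8Cre(ND) replicate 3 or 4 (0.0554 and 0.05004). Without WT(ND) replicates 2 and 4 together the *Slc2a5* difference was -0.53 (adjusted p = 0.382), and with only the 8 mice compared it had an adjusted p of 0.0789.

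Upper glycolysis spends ATP to split glucose into triose phosphates. Of its 11 members, 1 was higher and 1 lower with the deletion on LID, and 2 were lower on ND. These were 18.2% of the members on each diet, against 30.2% on LID and 19.6% on ND for all entries. With the diet, 3 fell on LID in WT mice and 1 rose in *Glis3*-Pax8Cre mice. These were 27.3% and 9.09%, against 41.7% and 25.4% of all entries. *Hk2*, the insulin-regulated hexokinase, stood at 12.8, 35.9, 13.2 and 26 CPM in the 4 WT(ND) mice against 10.6, 10.4, 11.5 and 9.55 CPM in the 4 WT(LID) mice, with no overlap (log2 fold change -1.06 ± 0.34, adjusted p = 0.0211). With the deletion it stood at 16.1, 13.7, 6.58 and 13.2 CPM on ND and 10.2, 10.8, 11.9 and 5.43 CPM on LID, and the groups overlapped. Without WT(ND) replicates 2 and 4, which had the highest adipocyte markers, the fall in WT mice was -0.30 (adjusted p = 0.502). The WT(ND) mice left in that smaller fit, at 12.8 and 13.2 CPM, were still above all 4 WT(LID) mice, and the part of adipocytes was not tested. The call was also lost without WT(ND) replicate 2 alone (-0.72, adjusted p = 0.0865), without WT(ND) replicate 4 alone (adjusted p = 0.0551) and without WT(LID) replicate 4 (adjusted p = 0.0548). *Hk1*, the constitutive hexokinase, averaged 127, 121, 138 and 117 CPM (in the order WT and *Glis3*-Pax8Cre on ND, then the same on LID).

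*Pfkl*, *Pfkm* and *Pfkp* encode the liver, muscle and platelet forms of phosphofructokinase, the committed step of glycolysis. *Pfkl* stood at 92.4, 137, 109 and 127 CPM in the 4 WT(ND) mice against 71.9, 59.8, 64.9 and 73 CPM in the 4 WT(LID) mice, with no overlap (log2 fold change -0.79 ± 0.12, adjusted p = 0.000103). The *Glis3*-Pax8Cre mice stood at 106, 88.7, 84 and 84 CPM on ND and 75.9, 88.3, 79.6 and 70.9 CPM on LID, which overlapped (log2 fold change -0.20 ± 0.12, adjusted p = 0.228). The 2 diet effects differed (interaction 0.59 ± 0.17, adjusted p = 0.0348), a call lost in 13 of the 25 alternative fits, with an adjusted p of up to 0.221, and the lower *Pfkl* of *Glis3*-Pax8Cre(ND) mice (log2 fold change -0.36 ± 0.12, adjusted p = 0.0451) was lost in 18 of 26. *Pfkp* averaged 68.2 ± 3.79 CPM in WT against 54.1 ± 6.13 CPM in *Glis3*-Pax8Cre mice on LID, with no overlap (log2 fold change -0.33 ± 0.09, adjusted p = 0.0101), a call lost with scaling by library size alone and without the 4 libraries of highest thymocyte markers (adjusted p up to 0.148). The ratio of *Pfkp* to *Pfkl* counts was 0.618, 0.475, 0.553 and 0.415 in WT(ND), 0.958, 1.15, 1.11 and 0.862 in WT(LID) and 0.682, 0.644, 0.765 and 0.662 in *Glis3*-Pax8Cre(LID) mice. The WT(LID) mice were above both other groups with no overlap, which gives the smallest p the exact permutation test of 4 against 4 allows (p = 0.0286, two-sided, p = 0.0686 after adjustment over the 12 ratio tests).

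*Aldoc*, the brain form of aldolase, moved with the diet in opposite directions in the 2 genotypes, as *Slc2a10* did. It stood at 3.67, 3.92, 3.97 and 4.2 CPM in the 4 WT(ND) mice against 2.91, 2.12, 3.06 and 2.77 CPM in the 4 WT(LID) mice. Its level with the deletion was 3.07, 2.63, 3.05 and 2.0 CPM on ND and 4.43, 3.79, 3.45 and 4.25 CPM on LID. Neither pair overlapped, with a fall in WT (log2 fold change -0.54 ± 0.16, adjusted p = 0.0123) and a rise in *Glis3*-Pax8Cre mice (log2 fold change 0.57 ± 0.16, adjusted p = 0.0159), and the 2 effects differed (interaction 1.11 ± 0.22, adjusted p = 0.00451). *Aldoc* was thus lower with the deletion on ND (-0.56, adjusted p = 0.0232) and higher on LID (0.55, adjusted p = 0.0147). The ND call was lost in 6 of the 26 alternative fits, with an adjusted p of up to 0.19, the LID call without WT(LID) replicate 2 (adjusted p = 0.0598), the fall in WT mice without WT(LID) replicate 2 or without WT(ND) replicates 2 and 4 (adjusted p up to 0.0924), and the rise in *Glis3*-Pax8Cre mice with the replicate block (adjusted p = 0.0941), with scaling by library size alone (0.0663), with only the 8 mice compared (0.0771) and without the 4 libraries of highest thymocyte markers (0.0821). *Aldoa*, the main aldolase here, averaged 752, 651, 624 and 672 CPM (in the order WT and *Glis3*-Pax8Cre on ND, then the same on LID), without a call.

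Of 22 other glycolysis and gluconeogenesis genes, 18 were tested. In *Glis3*-Pax8Cre mice 3 were higher and 2 lower than in WT on LID, and 5 higher and 2 lower on ND. These were 27.8% and 38.9% of those tested, against 30.2% and 19.6% of all entries. *Fbp1*, the gluconeogenic fructose bisphosphatase that opposes phosphofructokinase, averaged 57.8 CPM in WT and 237 CPM in *Glis3*-Pax8Cre mice on ND, and 377 CPM and 1401 CPM in the same order on LID. It was higher with the deletion on LID (log2 fold change 1.89 ± 0.31, adjusted p = 0.00034) and ND (log2 fold change 2.03 ± 0.31, adjusted p = 0.000635).

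Lower glycolysis, which yields ATP and pyruvate, had *Eno2* as its sole called member. *Gapdh*, the glyceraldehyde 3-phosphate dehydrogenase gene, stood at 439, 559, 486 and 539.6 CPM in WT and 577, 466, 463 and 439 CPM in *Glis3*-Pax8Cre mice on ND, and 654, 562, 606 and 628 CPM and 524, 697, 541 and 539.7 CPM in the same order on LID. Its difference between genotypes was -0.09 ± 0.11 (adjusted p = 0.608) on LID and -0.06 ± 0.12 (adjusted p = 0.77) on ND, with signs that turned when libraries were scaled by size alone. On LID it was higher by 0.28 ± 0.12 (adjusted p = 0.0661) in WT mice, and DESeq2 called this difference (adjusted p = 0.0395). *Gapdh* has many processed pseudogenes, so its count depends on how shared reads were treated. Skeletal muscle markers summed to 2.47 to 1514 CPM in *Glis3*-Pax8Cre(ND) mice and 3.59 to 897 CPM in *Glis3*-Pax8Cre(LID) mice, with the highest sums in replicate 1 and replicate 2, which also held the highest *Gapdh* of their groups. *Pfkm*, the muscle phosphofructokinase, was highest in the library with the highest muscle sum in each of the 4 groups, *Aldoa* in 3 of 4 and *Gapdh* in 2 of 4, and the part of muscle in these levels was not tested.

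*Eno2*, the neuron-specific enolase, stood at 15.6, 12.3, 12.3 and 10.5 CPM in the 4 WT(LID) mice against 7.66, 6.54, 5.47 and 6.2 CPM in the 4 *Glis3*-Pax8Cre(LID) mice, with no overlap (log2 fold change -0.97 ± 0.18, adjusted p = 0.000604). On ND it stood at 18.6, 16.2, 11.1 and 15.1 CPM in WT and 12.7, 10.4, 8.58 and 8.33 CPM in *Glis3*-Pax8Cre mice, with an overlap (log2 fold change -0.61 ± 0.17, adjusted p = 0.0234). The ND call was lost in 9 of the 26 alternative fits, with an adjusted p of up to 0.172. *Eno2* also fell on LID in *Glis3*-Pax8Cre mice (log2 fold change -0.62 ± 0.18, adjusted p = 0.0173), a call lost without *Glis3*-Pax8Cre(ND) replicate 1 (adjusted p = 0.0549) or *Glis3*-Pax8Cre(LID) replicate 3 (adjusted p = 0.0515). *Eno1*, the ubiquitous enolase, was counted at 1.19 to 2.68 CPM, and its entry overlaps that of its near-identical copy *Eno1b*, so its level here is uncertain. Log2 fold changes of the other members, *Pgk1*, *Pgam1* and *Pkm*, lay between -0.25 and 0.22 in the 2 genotype and 2 diet comparisons, without a call.

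All 6 members that handle pyruvate and lactate were called with the diet in WT mice, 5 lower and 1 higher on LID, where 41.7% of all entries were called. Without WT(ND) replicates 2 and 4, *Pdk1* and *Slc16a3* were the 2 that kept their call. In *Glis3*-Pax8Cre mice 2 were lower, as were 12.3% of all entries. *Ldha* encodes the lactate dehydrogenase subunit that favours lactate formation, and stood at 311, 409, 364 and 353 CPM in the 4 WT(ND) mice against 263, 214, 267 and 262 CPM in the 4 WT(LID) mice, with no overlap (log2 fold change -0.51 ± 0.13, adjusted p = 0.00548). With the deletion it stood at 362, 269, 242 and 302 CPM on ND and 258, 291, 217 and 224 CPM on LID, which overlapped (log2 fold change -0.25 ± 0.13, adjusted p = 0.182). *Ldhb*, the heart form, fell in WT (log2 fold change -0.35 ± 0.09, adjusted p = 0.00382) and *Glis3*-Pax8Cre mice (log2 fold change -0.28 ± 0.09, adjusted p = 0.0237), where the call was lost in 5 of the 27 alternative fits, with an adjusted p of up to 0.101, the replicate block included (adjusted p = 0.101). The ratio of *Ldha* to *Ldhb* counts spanned 1.43 to 2.12 over the 16 mice, and all 4 groups overlapped. *Pdha1*, the pyruvate dehydrogenase subunit, fell in WT mice (log2 fold change -0.52 ± 0.13, adjusted p = 0.00524). Without WT(ND) replicates 2 and 4 none of these 3 WT calls held, with adjusted p values of 0.0672, 0.0614 and 0.169 for *Ldha*, *Ldhb* and *Pdha1*.

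*Pdk1* encodes the kinase that shuts pyruvate dehydrogenase and is a textbook HIF target. It stood at 83.6, 85.4, 71.1 and 104 CPM in WT and 67.3, 58.8, 61.4 and 81.6 CPM in *Glis3*-Pax8Cre mice on ND, and 56.7, 53.1, 65.1 and 57.5 CPM and 48.5, 37.9, 38.6 and 48.4 CPM in the same order on LID. The LID mice were below the ND mice of the same genotype with no overlap, in WT (log2 fold change -0.57 ± 0.13, adjusted p = 0.00252) and *Glis3*-Pax8Cre mice (log2 fold change -0.63 ± 0.13, adjusted p = 0.00262). *Pdk1* was lower with the deletion on LID (log2 fold change -0.42 ± 0.13, adjusted p = 0.0219), a call lost in 4 of the 26 alternative fits, with an adjusted p of up to 0.15, among them those without *Glis3*-Pax8Cre(LID) replicate 2 or 3, or without replicate 3 of the WT(LID) mice.

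*Slc16a1* and *Slc16a3* encode the monocarboxylate transporters MCT1, which carries lactate in or out, and MCT4, which exports it from glycolytic cells. *Slc16a1* stood at 17.8, 46.1, 20.9 and 22.3 CPM in the 4 WT(ND) mice against 9.15, 6.89, 10.9 and 7.53 CPM in the 4 WT(LID) mice, with no overlap. The *Glis3*-Pax8Cre mice stood at 18.6, 15.8, 12.8 and 50.5 CPM on ND and 18.5, 21.8, 20.9 and 23.1 CPM on LID. It fell on LID in WT mice (log2 fold change -1.64 ± 0.40, adjusted p = 0.0044) and was higher with the deletion on LID (log2 fold change 1.29 ± 0.39, adjusted p = 0.023). The first call was lost without WT(ND) replicates 2 and 4 (adjusted p = 0.0523) and the second without WT(LID) replicate 2 (adjusted p = 0.0676) or replicate 4 (adjusted p = 0.0609). *Glis3*-Pax8Cre(ND) replicate 4, the library rich in thymocyte markers, held the highest *Slc16a1* level of the 16 mice.

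*Slc16a3* moved the other way at a low level. It stood at 1.05, 1.22, 1.62 and 1.16 CPM in the 4 WT(ND) mice against 3.53, 2.8, 4.12 and 4.3 CPM in the 4 WT(LID) mice, a rise with no overlap (log2 fold change 1.55 ± 0.32, adjusted p = 0.00127). Its level with the deletion was 4.33, 2.09, 1.12 and 3.55 CPM on ND and 1.63, 2.18, 1.31 and 1.83 CPM on LID, which overlapped (log2 fold change -0.65 ± 0.32, adjusted p = 0.145). The 2 diet effects differed (interaction -2.20 ± 0.45, adjusted p = 0.0052). This call had an adjusted p of 0.0517 without the 4 libraries of highest thymocyte markers. *Slc16a3* was higher with the deletion on ND (log2 fold change 1.11 ± 0.32, adjusted p = 0.0253), a call lost in 9 of the 26 alternative fits, with an adjusted p of up to 0.195, and lower on LID (log2 fold change -1.09 ± 0.32, adjusted p = 0.0171), a call lost without *Glis3*-Pax8Cre(LID) replicate 3 (adjusted p = 0.0518) and without the 4 libraries of highest thymocyte markers (adjusted p = 0.062).

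The balance of the pair set the WT(LID) mice apart. The ratio of *Slc16a3* to *Slc16a1* counts was 0.0597, 0.0267, 0.0784 and 0.0522 in WT(ND) and 0.236, 0.133, 0.0889 and 0.0706 in *Glis3*-Pax8Cre(ND) mice. On LID it was 0.387, 0.407, 0.38 and 0.573 in WT and 0.0891, 0.101, 0.0634 and 0.0798 in *Glis3*-Pax8Cre mice. All 4 WT(LID) mice were above the 12 others. The mean log2 ratio differed by 3.09 between WT(LID) and WT(ND) mice and by -2.39 between *Glis3*-Pax8Cre(LID) and WT(LID) mice, each at the smallest p of the exact permutation test (0.0286, adjusted 0.0686).

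**Figure D3:**
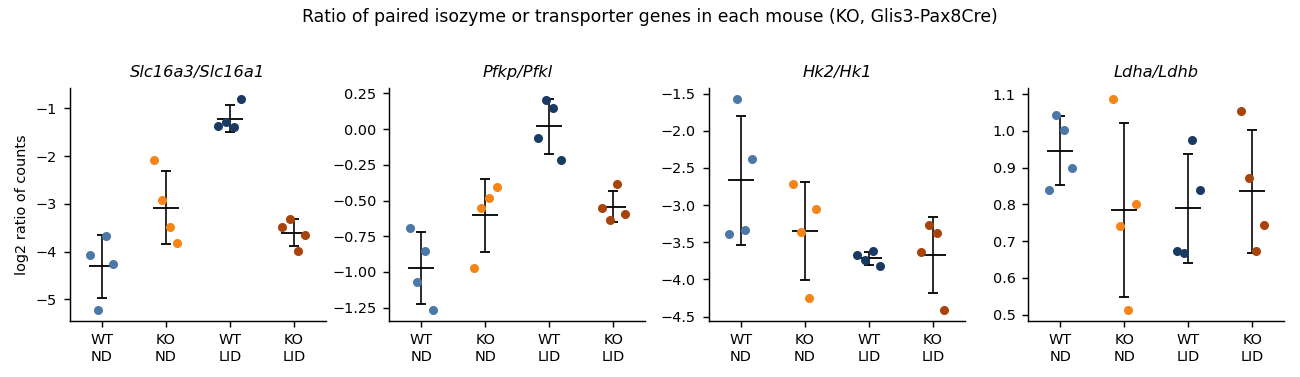
log2 ratio of the counts of paired isozyme or transporter genes (vertical axes) in each of the 16 mice by group (horizontal axes; KO, *Glis3*-Pax8Cre), with the mean and SD of 4 mice as bars. The 4 WT(LID) mice lie above all others for *Slc16a3*/*Slc16a1* and *Pfkp*/*Pfkl*, and the groups overlap for *Ldha*/*Ldhb*.

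Of 17 other pyruvate and lactate genes, 10 were lower and 2 higher on LID in WT mice, and in *Glis3*-Pax8Cre against WT mice 1 was lower and 3 higher on LID, 5 lower and 2 higher on ND. The shares called were 70.6%, 23.5% and 41.2% in that order, against 41.7%, 30.2% and 19.6% of all entries. *Emb*, encoding embigin, a partner that brings monocarboxylate transporters to the membrane, averaged 217 CPM in WT and 600.4 CPM in *Glis3*-Pax8Cre mice on ND, and 236 CPM and 555 CPM in the same order on LID. It was higher with the deletion on LID (log2 fold change 1.23 ± 0.29, adjusted p = 0.00479) and ND (log2 fold change 1.47 ± 0.29, adjusted p = 0.00311), where the adjusted p was 0.0561 without WT(ND) replicates 2 and 4. *Pdp2*, a pyruvate dehydrogenase phosphatase, was lower on LID (log2 fold change -1.32 ± 0.16, adjusted p = 2.48e-05). *Pck1*, phosphoenolpyruvate carboxykinase, was lower on ND (log2 fold change -1.22 ± 0.36, adjusted p = 0.0295), with an adjusted p of 0.48 without WT(ND) replicates 2 and 4.

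Of the 4 pentose phosphate members, 2 were lower with the deletion on LID and 3 on ND, with none higher (background 15.4% and 9.25% lower). *G6pdx* encodes glucose 6-phosphate dehydrogenase, the NADPH-producing entry step, and averaged 105 ± 6.05 CPM (SD, n = 4) in WT and 71.4 ± 8.23 CPM in *Glis3*-Pax8Cre mice on ND, and 111 ± 4.32 CPM and 71 ± 4.84 CPM in the same order on LID. The *Glis3*-Pax8Cre mice were below the WT mice on each diet with no overlap, on LID (log2 fold change -0.65 ± 0.08, adjusted p = 3.37e-05) and on ND (log2 fold change -0.55 ± 0.08, adjusted p = 0.000446). *Pgd*, the next NADPH-producing enzyme, was lower on LID (log2 fold change -0.32 ± 0.10, adjusted p = 0.0236) and ND (log2 fold change -0.42 ± 0.10, adjusted p = 0.00802). The *Pgd* call on LID was lost without WT(LID) replicate 1 or 4, without *Glis3*-Pax8Cre(LID) replicate 4 and with scaling by library size alone (adjusted p up to 0.277). Its call on ND was lost in 3 of the 26 alternative fits, with an adjusted p of up to 0.127. Diet differences of both genes lay between -0.01 and 0.13 on the log2 scale, without a call. *G6pdx* overlaps *Ikbkg* on the opposite strand.

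*Tkt*, transketolase of the non-oxidative branch, stood at 405, 697, 493 and 604 CPM in the 4 WT(ND) mice against 342, 346, 296 and 209 CPM in the 4 *Glis3*-Pax8Cre(ND) mice, with no overlap (log2 fold change -0.88 ± 0.17, adjusted p = 0.00248). On LID it stood at 274, 227, 234 and 237 CPM in WT and 192, 239.8, 215 and 181 CPM in *Glis3*-Pax8Cre mice, which overlapped (log2 fold change -0.23 ± 0.17, adjusted p = 0.344). *Tkt* fell on LID in WT mice (log2 fold change -1.18 ± 0.17, adjusted p = 7.14e-05) and in *Glis3*-Pax8Cre mice (log2 fold change -0.53 ± 0.17, adjusted p = 0.0346), where the call was lost in 7 of the 27 alternative fits, with an adjusted p of up to 0.10. Without WT(ND) replicates 2 and 4 the ND difference between genotypes was -0.58 (adjusted p = 0.0765). *Taldo1*, transaldolase, carried no call. Of 10 other pentose phosphate genes 8 were tested, and 2 were higher with the deletion on LID and 3 on ND, with none lower (background 14.9% and 10.3% higher).

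*Hif1a* and *Epas1* encode the alpha subunits HIF1A and HIF2A and responded to the diet in opposite directions in WT mice. *Hif1a* stood at 687, 693, 482 and 543 CPM in the 4 WT(ND) mice against 348, 365, 364 and 320.5 CPM in the 4 *Glis3*-Pax8Cre(ND) mice. On LID it stood at 367, 413, 408 and 401 CPM in WT and 312, 215, 276 and 281 CPM in *Glis3*-Pax8Cre mice. None of these 4 pairs of groups differing in 1 factor overlapped. *Hif1a* was lower with the deletion on ND (log2 fold change -0.78 ± 0.13, adjusted p = 0.000714) and LID (log2 fold change -0.55 ± 0.13, adjusted p = 0.00338). It fell on LID in WT (log2 fold change -0.60 ± 0.13, adjusted p = 0.00132) and *Glis3*-Pax8Cre mice (log2 fold change -0.37 ± 0.12, adjusted p = 0.042), where the call was lost in 14 of the 27 alternative fits, with an adjusted p of up to 0.118, the replicate block included (adjusted p = 0.0882).

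*Epas1* stood at 165, 183, 167 and 222 CPM in the 4 WT(ND) mice against 298, 360.3, 360.1 and 334 CPM in the 4 WT(LID) mice. With the deletion it stood at 174, 223, 178 and 156 CPM on ND and 182, 181, 212 and 154 CPM on LID. The WT(LID) mice were above all 12 others, which overlapped among themselves. *Epas1* rose on LID in WT mice (log2 fold change 0.88 ± 0.13, adjusted p = 7.14e-05) and differed by 0.00 ± 0.13 (adjusted p = 0.986) in *Glis3*-Pax8Cre mice, and the 2 effects differed (interaction -0.88 ± 0.18, adjusted p = 0.00508). It was lower with the deletion on LID (log2 fold change -0.89 ± 0.13, adjusted p = 9.06e-05) and differed by -0.01 ± 0.13 (adjusted p = 0.963) on ND.

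*Epas1* is known for its high expression in endothelium, and the endothelial markers were likewise highest in the WT(LID) mice. The summed level of *Pecam1*, *Cdh5*, *Kdr*, *Tek* and *Emcn* was 1225 to 1390.0 CPM in WT(LID) mice and 459 to 579.6 CPM in WT(ND) mice. It was 598 to 832 CPM on ND and 552 to 712 CPM on LID in *Glis3*-Pax8Cre mice. All 5 markers rose on LID in WT mice, 4 of 5 were lower with the deletion on LID, and all 5 had a negative interaction that passed the test. On ND the marker sums of *Glis3*-Pax8Cre mice lay above those of WT mice, and 2 of 5 markers were called higher, unlike *Epas1*. Pericyte markers stood at 606 to 943 CPM in WT(LID) mice and at 257 to 566 CPM in the others. Fibroblast markers summed to 1062 to 1240.5 CPM in WT(LID) mice and to 249 to 742 CPM in the others, and of the 5 genes 2 rose and 2 fell on LID in WT mice. The part of these cells in the levels of *Epas1*, *Slc2a1* and *Slc16a3* was not tested.

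Adipocyte markers summed to 679.9, 1587, 781 and 1305 CPM in the WT mice on ND, in replicate order, and all 6 were detected in every library. They summed to 337 to 609 CPM in WT(LID) mice, and to 408 to 799 CPM on ND and 378 to 851 CPM on LID with the deletion. In WT mice 5 of the 6 were lower on LID and none higher. *Slc2a4*, *Hk2*, *Tkt*, *Pfkl* and *Pdha1* were all highest in WT(ND) replicates 2 and 4. Without both libraries *Slc2a4*, *Tkt* and *Pfkl* still fell on LID in WT mice, and *Hk2* and *Pdha1* no longer passed the test. That fit has fewer WT(ND) mice, and the part of adipocytes in these levels was not tested.

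**Figure D4:**
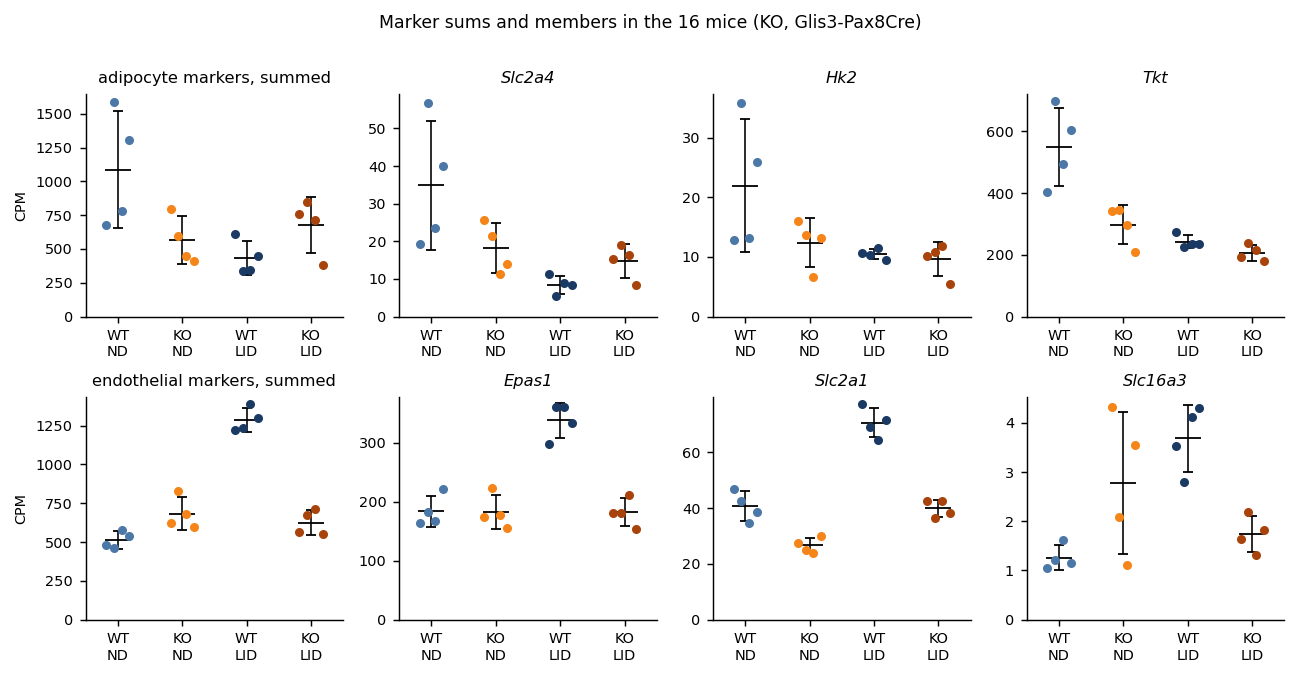
Summed markers of adipocytes and endothelial cells (left column) and 6 members (other columns) in CPM (vertical axes, from 0) in each of the 16 mice by group (horizontal axes; KO, *Glis3*-Pax8Cre), with the mean and SD of 4 mice as bars. The WT(ND) mice with the highest adipocyte sums hold the highest *Slc2a4*, *Hk2* and *Tkt*, and the WT(LID) mice stand highest for endothelial markers, *Epas1* and *Slc2a1*.

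*Egln3* and *Bnip3*, both known HIF targets, were higher with the deletion. *Egln3* encodes PHD3, the prolyl hydroxylase that marks HIF alpha subunits for degradation, and stood at 7.89, 9.65, 12.2 and 10.5 CPM in the 4 WT(ND) mice against 19.6, 15.5, 16.9 and 22.5 CPM in the 4 *Glis3*-Pax8Cre(ND) mice, with no overlap (log2 fold change 0.89 ± 0.16, adjusted p = 0.00127). On LID it stood at 15.1, 12.9, 14.5 and 13.7 CPM in WT and 14.5, 21.3, 18.6 and 22.3 CPM in *Glis3*-Pax8Cre mice (log2 fold change 0.45 ± 0.15, adjusted p = 0.0384), which overlapped and where the call was lost in 9 of the 26 alternative fits, with an adjusted p of up to 0.116. *Egln3* rose on LID in WT mice (log2 fold change 0.48 ± 0.15, adjusted p = 0.0201), a call lost in 4 of the 26 alternative fits, with an adjusted p of up to 0.151, among them that without WT(ND) replicate 1 (adjusted p = 0.0635).

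*Bnip3*, a mitochondrial mitophagy receptor, stood at 96.4, 84.5, 81 and 91.8 CPM in the 4 WT(LID) mice against 178, 151, 138 and 154 CPM in the 4 *Glis3*-Pax8Cre(LID) mice, with no overlap (log2 fold change 0.82 ± 0.12, adjusted p = 0.000137). On ND it stood at 101, 113, 142 and 131 CPM in WT and 182, 163, 177 and 129 CPM in *Glis3*-Pax8Cre mice, which overlapped (log2 fold change 0.42 ± 0.12, adjusted p = 0.0268), a call lost in 6 of the 26 alternative fits, with an adjusted p of up to 0.158. *Bnip3* fell on LID in WT mice (log2 fold change -0.46 ± 0.12, adjusted p = 0.00689). *Ankrd37* averaged 1.98, 1.02, 0.904 and 0.469 CPM and *Car9*, the hypoxia-induced carbonic anhydrase, 0.561, 0.759, 0.61 and 0.771 CPM (in the order WT and *Glis3*-Pax8Cre on ND, then the same on LID), without a call. By these calls *Egln3* rose and *Bnip3* fell with the diet in WT mice, so these 2 HIF targets did not move together there. *Ankrd37* and *Car9* were low, where a missing call says little.

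Of 8 other HIF pathway genes, 4 were higher and none lower with the deletion on LID, and 3 were higher and 1 lower on ND. That was 50% on each diet, against 30.2% of all entries on LID and 19.6% on ND. *Hif1an*, encoding the asparagine hydroxylase FIH that limits HIF activity, was higher on LID (log2 fold change 1.08 ± 0.13, adjusted p = 1.53e-05). *Arnt2*, a partner of HIF alpha subunits, and *Hif3a* were higher on ND (log2 fold change 2.28 ± 0.26, adjusted p = 4.87e-05 and log2 fold change 1.08 ± 0.20, adjusted p = 0.00176), and the *Hif3a* call was lost without WT(ND) replicates 2 and 4 (adjusted p = 0.0522). Of 28 other hypoxia target genes, 6 were higher and 5 lower with the deletion on each diet, and 13 rose and 5 fell on LID in WT mice. On each diet 39.3% of them were called, against 30.2% of all entries on LID and 19.6% on ND. With the diet in WT mice the shares were 64.3% and 41.7%. *Anxa2*, annexin A2, was lower with the deletion on LID (-1.27, adjusted p = 2.48e-05), and *Nos2*, the inducible nitric oxide synthase, was higher (1.75, adjusted p = 0.000182). On ND *Car12*, a carbonic anhydrase, was higher, at 3.06 against 0.162 CPM (log2 fold change 4.22 ± 0.29, adjusted p = 6.48e-07). *Epo*, erythropoietin, was called higher on ND (log2 fold change 1.57 ± 0.53, adjusted p = 0.0489) at 0.153 against 0.0445 CPM, near the limit of 3 counts per library (0.00651 to 0.216 CPM), and the call was lost in most leave-one-out fits. Among 14 glycogen genes 3 were lower with the deletion on each diet and 1 higher on LID. Called were 28.6% on LID and 21.4% on ND, against 30.2% and 19.6% of all entries. *Phkg1*, a phosphorylase kinase subunit, was lower on LID (log2 fold change -2.20 ± 0.26, adjusted p = 1.57e-05).

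Whether the diet effect differed by genotype was tested as an interaction, in which 3 members were called higher and 3 lower, against 4.43% and 7.41% of all entries. With scaling by library size alone the counts were 1 and 3, without a background given. *Slc2a4*, *Aldoc* and *Pfkl* had positive values and *Slc16a3*, *Epas1* and *Slc2a10* negative ones. The diet comparisons in the 2 genotypes share no mice. Of the 19 members called in WT and the 10 called in *Glis3*-Pax8Cre mice, 7 were called in the same direction (36.8% of the former and 70% of the latter), namely *Slc2a1*, *Slc2a3*, *Slc2a12*, *Ldhb*, *Pdk1*, *Tkt* and *Hif1a*. *Slc2a10* and *Aldoc* were called in opposite directions. The genotype comparisons on the 2 diets likewise share no mice, and of the 15 members called on LID and the 12 on ND, 8 were called in the same direction (53.3% and 66.7%), namely *Slc2a1*, *Slc2a12*, *Eno2*, *G6pdx*, *Pgd*, *Hif1a*, *Egln3* and *Bnip3*. *Aldoc* and *Slc16a3* were called in opposite directions there. Overlaps of calls over all entries are not given, so the shares of members have no background here.

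**Figure D5:**
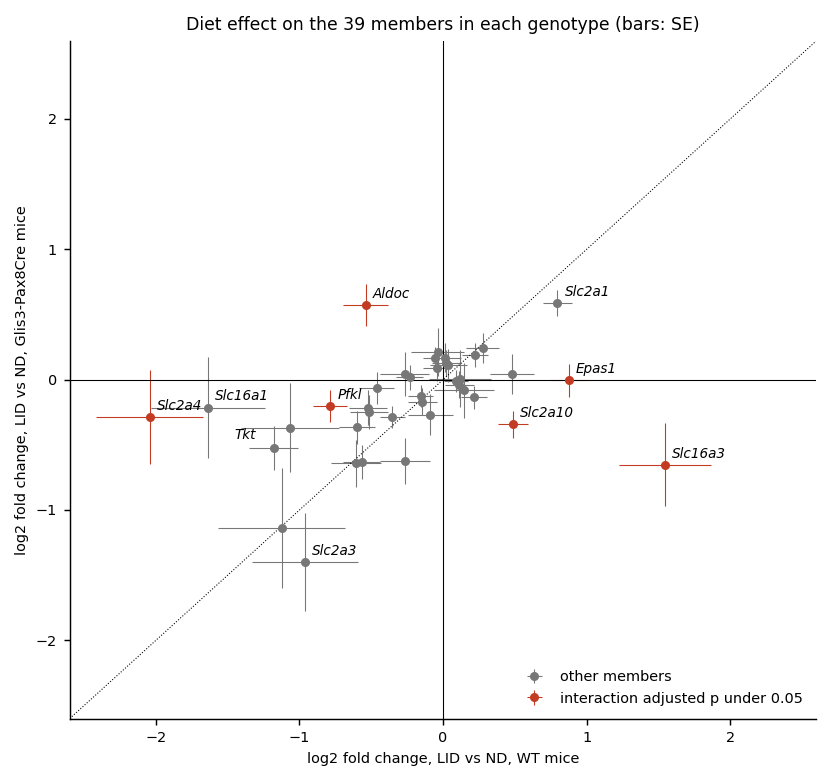
log2 fold change of the 39 members on LID against ND in WT mice (horizontal axis) and in *Glis3*-Pax8Cre mice (vertical axis), with SE as bars, the line of equal change dotted, and the 6 members with an interaction of adjusted p under 0.05 in red. *Slc2a1* lies near the dotted line, and *Slc16a3*, *Slc2a4*, *Epas1*, *Slc2a10* and *Aldoc* lie away from it.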

How the data were processed

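RNA was extracted from the thyroid glands of 16 mice and sequenced by the authors, who aligned the paired reads with STAR 2.5 to the mouse genome mm10, kept pairs with an average quality over 20 and obtained 1 count per RefSeq gene from featureCounts 1.5.0-p1. The deposited values are these raw counts for 25611 entries, without normalization and without regard to strand, so reads of overlapping genes cannot be told apart. The sequencer differs within the series and is not assigned to libraries in the sources used here.

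Here counts were scaled by TMM and filtered with filterByExpr, which left 16630 entries, and tested with the quasi-likelihood test of edgeR 4.0.16 (R 4.3.3) in 1 fit of all 16 mice with 1 coefficient per group. The p-values were adjusted by Benjamini-Hochberg over those entries, and a call is an adjusted p under 0.05. A positive log2 fold change means higher in the first-named group, and its error is the SE. The interaction is the diet effect in *Glis3*-Pax8Cre minus that in WT mice. Ratios of paired genes, with a pseudocount of 1, were tested by exact permutation. On simulated counts of 16498 genes the fit recovered 58 of 99 genes changed 2-fold and 88 of 100 changed 3-fold, with 6 false calls. No pair of libraries within a group agreed within sampling noise (chi-square per degree of freedom at least 33.0 in 24 pairs). The replicates were separate mice.

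The 39 members and all lists were chosen with earlier results of these data known. Values per mouse are given for, in each of the 5 comparisons, the 5 called members with the largest change in each direction and a mean of at least 1 CPM, and for *Slc2a1*, *Hk2*, *Ldha*, *Hif1a* and *Gapdh*. Genes that are not members are named where called with a log2 change over 1 between genotypes, at most 5 per list, and 2 of these genes are not reported here. Alternatives were RLE and library-size scaling, 2 other filters, leaving out *Tg*, other pseudocounts, a stricter threshold, DESeq2 1.42.0, fits of the 8 mice compared, the replicate block and leaving out each mouse. Leaving out WT(ND) replicates 2 and 4 together, and the 4 libraries of highest thymocyte markers, was added after seeing the data. Equal replicate numbers went with shared deviations (correlation over 0.1 in 4 of 4 pairs, from 0.21 to 0.65) between the *Glis3*-Pax8Cre groups, where a blocked value is given beside a call that it ends. Between the WT groups the correlation was over 0.1 in 2 of 4 pairs, up to 0.14, and in the genotype comparisons in none.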

Additional observations from a re-analysis of the deposited data

Results flagged for a closer look

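In groups of 4 mice, 8 member values stood apart from the other 3 mice by a gap above Dixon's 95% critical value, among 156 groups of member values tested, where 5% or 7.8 are expected by chance. *Glis3*-Pax8Cre(ND) replicate 4 held 8.65 CPM of *Slc2a3* and 50.5 CPM of *Slc16a1*, and WT(ND) replicate 2 held 46.1 CPM of *Slc16a1* and 107 CPM of *Hk1*. *Glis3*-Pax8Cre(LID) replicate 2 held 697 CPM of *Gapdh* and 244 CPM of *Taldo1*, and its skeletal muscle markers summed to 897 CPM, the highest of its group. In WT(LID) mice *Ldha* was low in replicate 2 at 214 CPM, and *Ankrd37* stood apart in replicate 1 at 1.36 CPM.

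By the same rule the library of WT(ND) replicate 4, with 461077969 counts, stood apart in depth. Summed thymocyte markers stood apart in *Glis3*-Pax8Cre(ND) replicate 4 at 2214 CPM, *Glis3*-Pax8Cre(LID) replicate 4 at 256 CPM and WT(LID) replicate 3 at 177 CPM. Their part in the member values was not tested beyond the fits without these libraries.

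The diet effect differed between genotypes, by the interaction test, for 6 members. The difference of log2 fold changes was 1.76 for *Slc2a4*, -0.83 for *Slc2a10*, 0.59 for *Pfkl*, 1.11 for *Aldoc*, -2.20 for *Slc16a3* and -0.88 for *Epas1*. Those of *Slc2a10*, *Aldoc* and *Epas1* passed the test in all 25 alternative fits.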

How the results depend on the processing

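Counts of called members depended on settings as follows, and where no reason is given the cause was not tested. The share of all entries called is not given for these settings, so their counts have no background here. At a stricter threshold (fold over 2, adjusted p under 0.01), 0 members were higher and 0 lower between genotypes on LID, 0 and 0 on ND, and 0 and 0 with the diet in *Glis3*-Pax8Cre mice, while 1 was higher and 3 lower with the diet in WT mice, and 1 was higher and 1 lower in the interaction. With only the 8 mice compared, which leaves fewer samples, *Glis3*-Pax8Cre(ND) against WT(ND) mice gave 1 higher and 5 lower, and the diet in *Glis3*-Pax8Cre mice 1 higher and 2 lower. Without WT(ND) replicates 2 and 4 the counts were 1 higher and 3 lower on ND between genotypes, 6 lower with the diet in WT mice and 1 higher in the interaction. DESeq2 gave 8 higher with the diet in WT mice. Without the 4 libraries of highest thymocyte markers the diet in *Glis3*-Pax8Cre mice gave 1 higher, and the interaction 5 higher.

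Scaling by library size alone shifted the median of all entries by 0.15 on LID and 0.12 on ND between genotypes, and by -0.16 and -0.13 with the diet in WT and *Glis3*-Pax8Cre mice. Under it 4 members were higher and 8 lower between genotypes on LID, 3 higher and 5 lower on ND, 4 higher and 17 lower with the diet in WT and 1 higher and 10 lower in *Glis3*-Pax8Cre mice, and 1 higher and 3 lower in the interaction.

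With a block for the replicate number in the 8 *Glis3*-Pax8Cre mice, whose equal numbers deviated together (3 of 4 mice correlated best with their own number), 1 member was higher and 4 lower with the diet. The block over all 16 mice gave 1 higher in the interaction. Between the WT groups 1 of 4 mice correlated best with its own number, and in the genotype comparisons none did. Whether equal numbers were paired there is not known.

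Leaving out each mouse gave 1 to 4 higher and 9 to 14 lower between genotypes on LID, 1 to 3 and 6 to 11 on ND, 4 to 8 and 12 to 16 with the diet in WT mice, 2 to 3 and 3 to 8 in *Glis3*-Pax8Cre mice, and 1 to 4 and 3 to 4 in the interaction. The lowest counts of higher members came without WT(LID) replicate 2 (LID), without WT(ND) replicates 1 or 2 or *Glis3*-Pax8Cre(ND) replicate 1 (ND), and the fewest lower with the diet in *Glis3*-Pax8Cre mice without *Glis3*-Pax8Cre(LID) replicate 4. On LID 2 were higher without WT(LID) replicate 4. The count of 8 higher in WT mice came without *Glis3*-Pax8Cre(ND) replicate 4. Lower members with the diet in *Glis3*-Pax8Cre mice numbered 4 without *Glis3*-Pax8Cre(ND) replicate 1, and 5 without its replicate 2 or *Glis3*-Pax8Cre(LID) replicate 1 or 3. The interaction had 1 higher member without WT(ND) replicate 2 or 4, WT(LID) replicate 2 or 3, or, with the deletion, replicate 3 on ND or replicate 1, 2 or 3 on LID.

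Signs turned for differences that were not called. Between genotypes on LID, *Hk2* was 0.0078 with library size alone and 0.10 without the thymocyte-rich libraries (-0.256 to 0.0614 leaving out each mouse), *Ldha* 0.12 and 0.051 (-0.112 to 0.0313), and *Gapdh* 0.055 with library size alone. On ND *Gapdh* was 0.066 with library size alone and 0.081 without WT(ND) replicates 2 and 4. In the interaction *Hk2* was -0.076 without those 2 mice, and *Gapdh* 0.0078 without the thymocyte-rich libraries (-0.138 to 0.0607 leaving out each mouse). The log2 ratio between genotypes on LID ranged from -0.0912 to 0.289 for *Hk2* to *Hk1* and from -0.0263 to 0.109 for *Ldha* to *Ldhb*. Apart from those that left out 1 mouse, 9 of the alternative values of single genes turned sign, 54 lost and 3 gained a call. Depth limits members such as *Slc16a3*, *Car9* and *Ankrd37*, at a few CPM or less, more than the rest. The level of *Eno1* is uncertain at any depth, since its entry overlaps that of *Eno1b*.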
